A study of Mus musculus with 18 samples.

Results

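The comparison described here is the difference in loading effect between intestinal dendritic cells (DCs) and intestinal macrophages. The loading effect of a gene is its log2 value in GFP-plus cells minus that in GFP-minus cells of the same gate. The interaction is the loading effect in CD103 DCs minus the mean loading effect of the 2 macrophage populations, and it was computed for 22180 genes from all 18 arrays of the series. Genes were called at a Benjamini-Hochberg adjusted p under 0.05 in limma. Genes that went opposite ways are the called genes whose loading effect had one sign in DCs and the other sign in both macrophage populations: 235 of 295 called genes, or 1.06% of all genes.

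All cells came from the small intestine of VDTR mice of both sexes. The labels give the strain by that name alone, and its usual description elsewhere is a diphtheria toxin receptor fused to GFP, expressed in intestinal epithelial cells from the villin promoter. All mice, those of the GFP-minus groups included, had received diphtheria toxin by intraperitoneal injection at 2 ng/kg and were killed 4 h later. The sorted groups were live CD45+ CD11c+ MHCII+ cells that were CD103+ CD24+ (DCs), CD103+ CD11b+ CD64+ (macrophages with CD103) or CD11b+ CD64+ (macrophages without the CD103 gate), each as GFP-plus and as GFP-minus cells, with 3 arrays per group. The labels give no age. They give an n value of 4 without saying what it counts and do not say whether the replicates are separate mice, so the spread behind each p-value may be technical and is that of these samples alone. GFP-plus cells are called loaded and GFP-minus cells unloaded. Both came from toxin-treated mice, so the loading effect does not compare toxin with no toxin.

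CD103 DCs of the intestinal wall take up dying epithelial cells, mature, and carry antigen along lymph to the mesenteric lymph node, where they prime T cells. Macrophages with CD64 stay in the lamina propria, clear dying cells and digest them in lysosomes. Maturing DCs switch on the chemokine receptor and cytoskeletal genes needed for migration and close down uptake, while macrophages that have eaten dying cells handle the lipid and protein of their cargo. Annexins, integrins and TGF-beta receptors, which appear among the genes below, belong to the machinery of membrane traffic, adhesion and tolerance that both cell types share.

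Values are log2 and were centred, probe by probe, on the median of the 18 arrays, which puts 0 at the middle array of a gene, and no level can be compared between genes. The marker lists set the gates apart. The mean of 10 macrophage markers lay between -5.16 and -3.87 on the 6 DC arrays and between -0.06 and 0.55 on the 12 macrophage arrays, and the mean of 9 cDC1 markers (type 1 classical DCs) lay between 1.91 and 2.85 on DC arrays and between -1.01 and 0.30 on macrophage arrays. Itgae, which encodes CD103, was between 4.93 and 5.56 on the DC arrays. On the GFP-minus arrays of the macrophages gated on CD103 it was 3.44, -0.43 and 2.66, but on their GFP-plus arrays it was -0.44, -0.15 and 0.05, close to the -0.53 to -0.05 of the macrophages without that gate. The transcript therefore does not bear out the CD103 label on 4 of those 6 arrays. The mean of 11 T and innate lymphocyte markers on those GFP-minus arrays was 1.54, 1.42 and 3.09, against -0.17, 0.60 and 0.60 on the GFP-plus arrays. In RNA of a sorted pool, fewer cells of a type and less RNA per cell cannot be told apart.

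Below, a value in brackets after an estimate is its adjusted p from limma unless another quantity is named. The interaction was called in 295 genes, 1.33% of those tested. It was above 0 in 40 genes (0.18%) and below 0 in 255 (1.15%). Of the 40, 24 were higher in loaded DCs and lower in both loaded macrophage populations. Of the 255, 211 were lower in loaded DCs and higher in both loaded macrophage populations. Of the rest, 12 moved the same way in all 3 populations but by different amounts, and in 48 the macrophage populations had unlike signs. Because a called interaction is more likely where the arms have unlike signs, the share of opposite genes among calls is a description. By sign alone, 14.3% of all genes were higher in loaded DCs and lower in both macrophage populations, and 19.2% had the reverse pattern. After quantile normalization of the arrays the split of calls was 16 above 0 and 34 below 0 in place of 40 and 255.

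**Figure D1:**
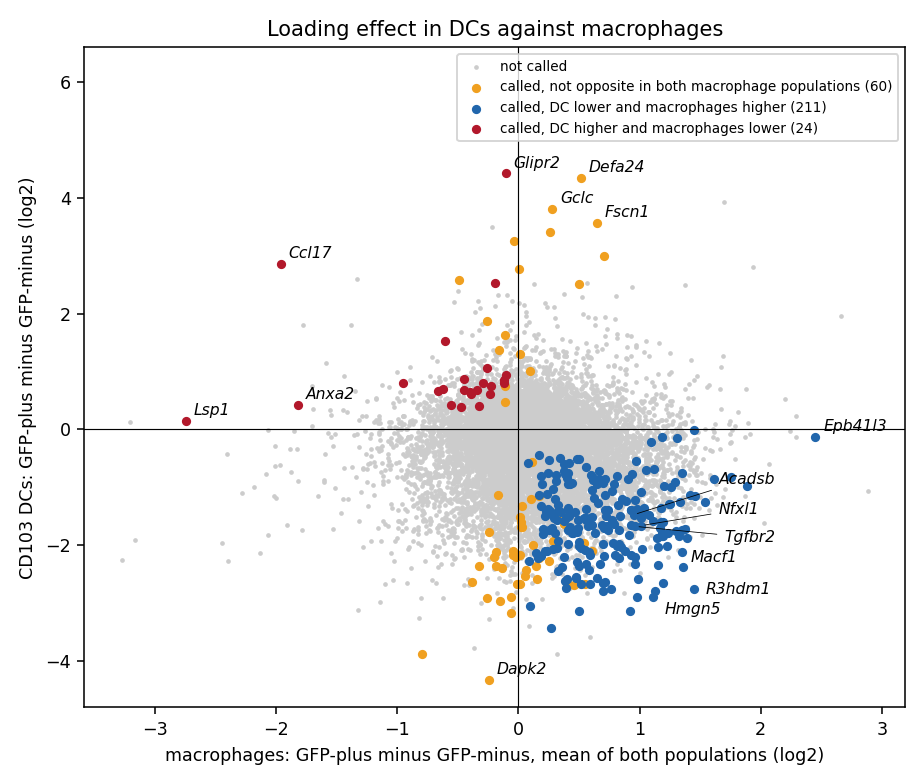
Each point is 1 of 22180 genes, with the mean loading effect of both macrophage populations on the x axis and the loading effect in CD103 DCs on the y axis, both in log2 units. Called genes lie mostly in the lower right (211 genes, lower in loaded DCs and higher in loaded macrophages) and sparsely in the upper left (24 genes).

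The 2 arms were seldom both past the threshold by themselves. Of the 24 genes, 14 had an unadjusted p under 0.05 in both arms (0.239% of all genes had this pattern in that direction), and of the 211 genes 135 did (1.47%). With adjusted p-values, both arms passed for 3 genes: Ccl17, Acadsb and Nfxl1. The DC arm passed for 9 of the 24 and 117 of the 211 (1.58% of all genes), and the macrophage arm for 4 of the 24 and 18 of the 211 (0.415%). The larger arm was that of DCs in 19 of the 24 and 189 of the 211. Because these genes were chosen by the same values, counts above the shares over all genes follow from the choice. Just inside the threshold of the interaction lay Defb29 and Mitd1 (adjusted p = 0.0499 for both) and just outside it lay Zhx1 (0.0501).

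Ccl17 showed the largest interaction of all genes tested. It encodes a chemokine, made by maturing DCs, that draws T cells bearing CCR4. The 250 bases before its start on the plus strand (chr8:94810203-94810452, RefSeq, GRCm38.p6) are printed because Ccl17 leads the genes higher in loaded DCs, and none of the 6 motifs searched lies in them, so all letters are lower case.
Ccl17: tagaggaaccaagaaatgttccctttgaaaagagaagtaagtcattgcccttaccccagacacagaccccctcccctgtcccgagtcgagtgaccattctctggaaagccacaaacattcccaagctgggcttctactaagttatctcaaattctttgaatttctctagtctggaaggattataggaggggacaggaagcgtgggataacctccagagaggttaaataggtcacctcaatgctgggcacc

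Ccl17 was 4.41, 4.15 and 3.65 on the GFP-plus DC arrays and 0.22, 1.51 and 1.92 on the GFP-minus DC arrays. In macrophages with CD103 it was -3.01, -2.81 and -2.59 with GFP and -0.22, -1.71 and -1.39 without. In the other macrophages it was -0.41, -1.83 and -1.74 with GFP and 0.82, 1.20 and 0.69 without. The GFP-plus and GFP-minus arrays did not overlap in any of the 3 populations, and loaded DCs were the highest group while loaded macrophages with CD103 were the lowest. The loading effect was 2.85 ± 0.47 (SE, n = 3 arrays per group) in DCs, a 7.22-fold rise (limma, adjusted p = 0.0103), and -1.96 ± 0.33 in macrophages, a 3.89-fold fall (adjusted p = 0.0259). The interaction was 4.81 ± 0.58 (limma, adjusted p = 0.0012).

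Anxa2 and Lsp1 differed mainly through macrophages. Anxa2 encodes annexin A2, which joins membranes to actin during endocytosis and repair. The 250 bases before its start (plus strand, chr9:69453433-69453682, RefSeq, GRCm38.p6) are shown because they hold, in capitals, 3 GC boxes (GGGCGG), 1 AP-1 motif (TGAGTCA) and 1 TATA box (TATAAA).
Anxa2: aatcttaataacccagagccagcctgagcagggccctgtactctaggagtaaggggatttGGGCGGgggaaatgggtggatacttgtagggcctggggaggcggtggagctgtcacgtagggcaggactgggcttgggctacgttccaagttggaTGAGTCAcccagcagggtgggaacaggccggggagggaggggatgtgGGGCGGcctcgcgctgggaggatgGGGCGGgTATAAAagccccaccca

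Anxa2 was 1.10, 1.33 and 0.70 in loaded DCs and 0.39, 0.60 and 0.87 in unloaded DCs, which overlap. Macrophages with CD103 had -2.90, -0.69 and -2.15 with GFP and -0.55, 0.03 and -0.16 without, and the other macrophages had -1.47, -1.39 and -1.94 with GFP and 0.51, 0.58 and -0.03 without. Every loaded macrophage array lay below every unloaded one of its population. The macrophage arm was -1.82 ± 0.29 (limma, adjusted p = 0.0213), the DC arm 0.42 ± 0.41 (0.676) and the interaction 2.25 ± 0.50 (0.0446).

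Lsp1, a leukocyte protein that binds F-actin, was 1.77, 1.85 and 2.04 in loaded DCs and 1.79, 1.58 and 1.84 in unloaded DCs. Arrays of macrophages with CD103 read -2.50, -2.07 and -2.24 with GFP and 1.07, -0.06 and 0.59 without, and those of the other macrophages -3.04, -3.81 and -3.07 with GFP and 0.06, -0.46 and -1.43 without. DCs thus kept overlapping levels with and without cargo, while loaded macrophages lay wholly below unloaded ones. The macrophage arm was -2.75 ± 0.24, a 6.72-fold fall (limma, adjusted p = 0.000368), and the interaction was 2.90 ± 0.42 (0.00491). Its positive sign in DCs, 0.15 ± 0.34, did not pass the test, so its place among the opposite genes rests on the macrophages.

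In other genes of this direction the size of the arms varied. Bbc3, which encodes the pro-apoptotic protein PUMA, was 0.00027, 0.62 and 0.50 in loaded DCs and -1.16, 0.013 and -0.16 in unloaded DCs, with 1 overlapping pair. In loaded macrophages it ranged from -0.36 to -0.09 and in unloaded ones from -0.00027 to 1.30, so the macrophage groups did not overlap. The interaction was 1.76 ± 0.39 (limma, adjusted p = 0.0446). Tagln2, an actin-binding protein, had 0.67 ± 0.21 in DCs, -0.66 ± 0.15 in macrophages and an interaction of 1.33 ± 0.26 (0.0263). Lrrc32 encodes GARP, which holds latent TGF-beta at the cell surface. It was chosen after its values were seen: 2.58, 2.58 and 3.27 in loaded DCs against -0.18, 0.42 and 0.58 in unloaded DCs, with a macrophage arm of only -0.19 ± 0.22 and an interaction of 2.72 ± 0.38 (0.00398). Glipr2 likewise rose in DCs, by 4.42 ± 0.63, with a macrophage arm of -0.11 ± 0.44 and an interaction of 4.53 ± 0.77 (0.0126). Unloaded DC replicate 1 was high for it, at 3.30 against 0.11 and 0.0021 for the other replicates.

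Among the 24, the median loading effect was 0.73 in DCs and -0.40 in macrophages, and the interaction ran from 0.73 to 4.81. GFP-plus and GFP-minus arrays did not overlap in DCs for 21 of them (20.1% of all genes were free of overlap in DCs, 8.66% with GFP-plus higher). In all 3 populations they did not overlap for 5 (0.0676% of all genes): Ccl17, Dchs1, Ang6, Gm9573 and 1700028E10Rik, of which Dchs1 is a protocadherin. The 24 were chosen by the same values, so counts above the shares over all genes follow from the choice. Several of the rule-named genes here, such as Olfr1085 (an olfactory receptor, interaction 1.32), Synpr (1.14) and Rprl2 (2.13), are not known as phagocyte genes, and the centred values cannot show whether they were above background.

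**Figure D2:**
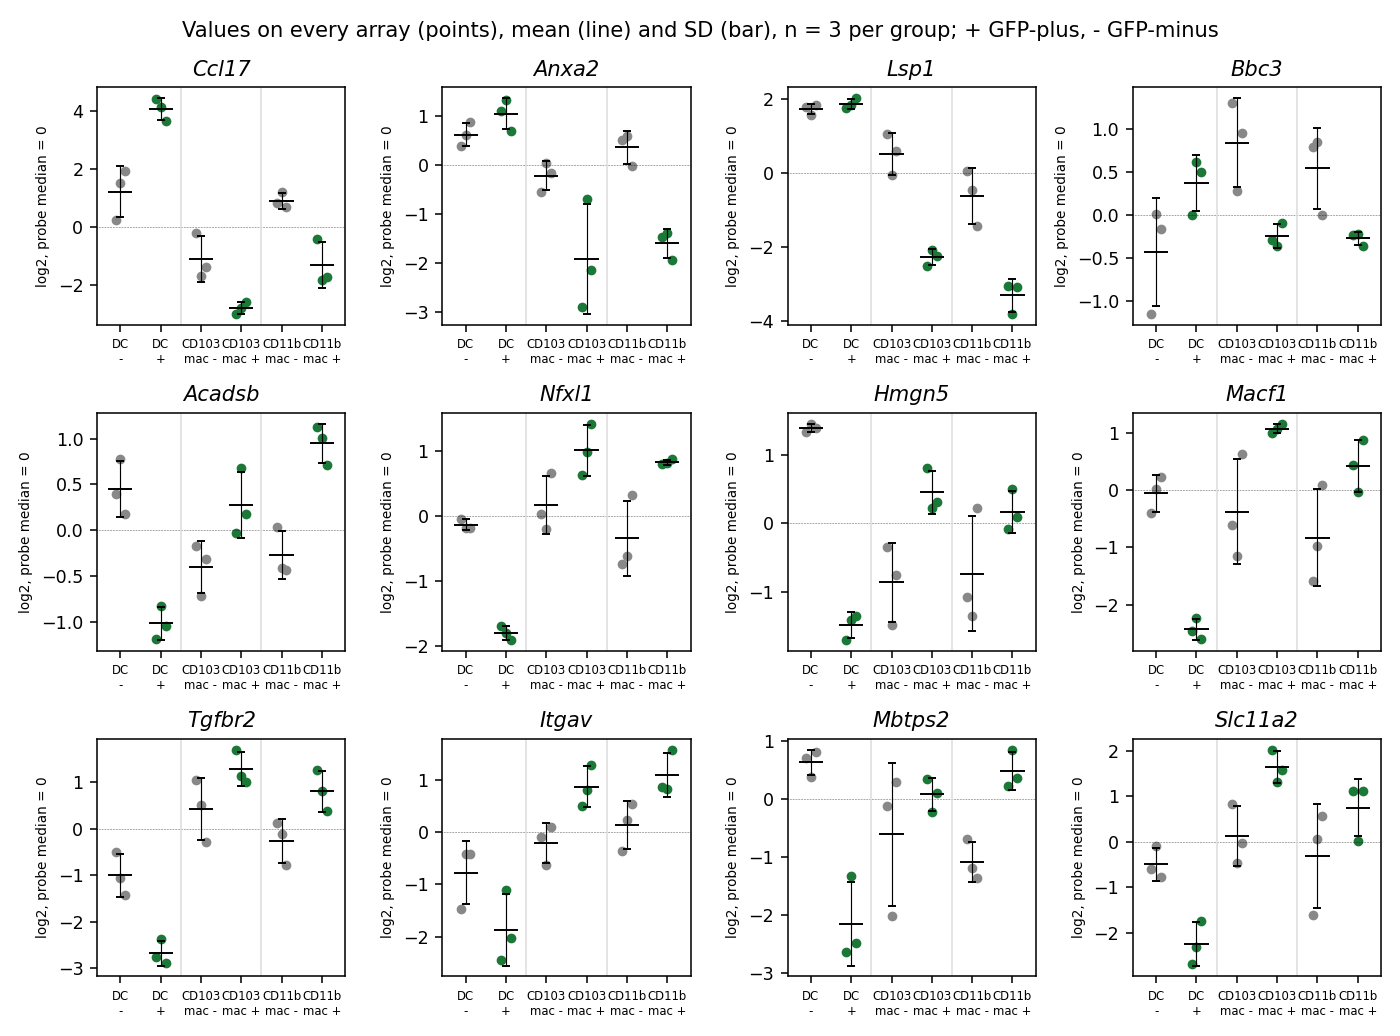
Values of 12 genes on every array, in log2 units relative to the median array, for GFP-minus (grey) and GFP-plus (green) cells of CD103 DCs, macrophages with CD103 ("CD103 mac") and macrophages without that gate ("CD11b mac"); lines are means and bars are SD, n = 3. In the top row (Ccl17, Anxa2, Lsp1, Bbc3) loaded macrophages lie below unloaded ones, and in the 8 genes of the lower rows loaded DCs lie below the unloaded ones, with overlap for Itgav, and loaded macrophages lie mostly above theirs.

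The larger set was lower in loaded DCs and higher in loaded macrophages, and Acadsb and Nfxl1 were its 2 members with both arms past the adjusted threshold. They fall outside the rule for named genes and were picked for that property. Acadsb encodes a mitochondrial dehydrogenase of short branched-chain acyl-CoA. It was -1.19, -0.83 and -1.04 in loaded DCs and 0.40, 0.78 and 0.18 in unloaded DCs. In macrophages with CD103 it was -0.03, 0.68 and 0.18 with GFP and -0.17, -0.72 and -0.32 without, and in the other macrophages 1.13, 1.01 and 0.71 with GFP and 0.03, -0.42 and -0.44 without. No population showed overlap. The DC arm was -1.47 ± 0.22 (limma, adjusted p = 0.00487), the macrophage arm 0.95 ± 0.16 (0.0259) and the interaction -2.42 ± 0.27 (0.000687). Nfxl1, a zinc finger protein, had a DC arm of -1.66 ± 0.27 (0.00959), a macrophage arm of 1.01 ± 0.19 (0.0399) and an interaction of -2.67 ± 0.33 (0.00142). Its loaded DC arrays, -1.90 to -1.68, lay far below the unloaded ones, -0.18 to -0.03, while in macrophages with CD103 loaded (0.64 to 1.43) and unloaded arrays (-0.19 to 0.67) overlapped at their edges.

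Hmgn5, a nucleosome-binding protein that loosens chromatin, had one of the largest interactions below 0. The 250 bases before its start (minus strand, chrX:109013381-109013630, RefSeq, GRCm38.p6) hold 2 CCAAT boxes, 1 of them on the opposite strand as ATTGG, in capitals.
Hmgn5: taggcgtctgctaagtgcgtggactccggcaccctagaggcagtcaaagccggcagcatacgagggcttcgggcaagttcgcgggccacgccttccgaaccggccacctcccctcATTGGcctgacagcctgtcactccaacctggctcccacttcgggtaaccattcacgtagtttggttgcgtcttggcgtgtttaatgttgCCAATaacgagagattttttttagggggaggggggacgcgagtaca

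Hmgn5 was -1.71, -1.42 and -1.35 in loaded DCs and 1.34, 1.46 and 1.40 in unloaded DCs. Macrophages with CD103 had 0.82, 0.23 and 0.31 with GFP and -0.35, -1.49 and -0.75 without, and the other macrophages had -0.09, 0.51 and 0.09 with GFP and -1.08, -1.35 and 0.23 without. Loaded and unloaded arrays were apart in DCs and in macrophages with CD103, and unloaded replicate 3 of the other macrophages lay among the loaded arrays. The DC arm was a 7.43-fold fall, -2.89 ± 0.36 (limma, adjusted p = 0.00106), the macrophage arm was 1.11 ± 0.25 and the interaction -4.00 ± 0.44 (0.000681). Macf1, a giant linker of actin and microtubules, followed with -2.46, -2.24 and -2.60 in loaded DCs against -0.40, 0.03 and 0.23 in unloaded ones. Its macrophage arm was 1.36 ± 0.31 and its interaction -3.74 ± 0.53 (0.00459).

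Of 19 measured genes in the list for regulatory T cell induction 2 were called, Tgfbr2 and Itgav, both below 0 (1.15% of all genes were). The list as a whole had no common direction: its median interaction was -0.007, with 10 members below 0 and 9 above. Tgfbr2 encodes the receptor subunit that binds TGF-beta, and Itgav the alpha-v chain of the integrins that release TGF-beta from its latent form and that also bind apoptotic cells. Their upstream bases are shown because both genes were lower in loaded DCs and higher in loaded macrophages. In that of Tgfbr2 (minus strand, chr9:116175364-116175613) the capitals mark 1 antioxidant response motif on the opposite strand (GCTTAGTCA) and 2 CCAAT boxes (CCAAT and ATTGG), and that of Itgav (plus strand, chr2:83724147-83724396) holds none of the 6 motifs (both RefSeq, GRCm38.p6).
Tgfbr2: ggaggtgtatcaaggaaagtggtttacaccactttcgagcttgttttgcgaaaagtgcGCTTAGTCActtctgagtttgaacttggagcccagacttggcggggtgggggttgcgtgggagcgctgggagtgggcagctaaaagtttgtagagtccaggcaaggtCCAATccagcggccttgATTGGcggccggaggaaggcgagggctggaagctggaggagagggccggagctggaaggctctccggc
Itgav: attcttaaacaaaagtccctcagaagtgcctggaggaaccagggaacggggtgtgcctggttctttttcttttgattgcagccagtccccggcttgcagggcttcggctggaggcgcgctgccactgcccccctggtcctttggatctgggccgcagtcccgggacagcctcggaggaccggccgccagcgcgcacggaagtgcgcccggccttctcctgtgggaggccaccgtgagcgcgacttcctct

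Tgfbr2 was -2.75, -2.37 and -2.89 in loaded DCs and -0.51, -1.06 and -1.42 in unloaded DCs, with no overlap. Arrays of macrophages with CD103 read 1.70, 1.14 and 1.00 with GFP and 1.04, 0.52 and -0.28 without, and those of the other macrophages 1.26, 0.80 and 0.37 with GFP and 0.11, -0.11 and -0.79 without. Loaded macrophages were thus the highest group and loaded DCs the lowest. The interaction was -2.64 ± 0.44 (limma, adjusted p = 0.0115), with a DC arm of -1.67 ± 0.36 (0.034) and a macrophage arm of 0.96 ± 0.25. Itgav was -2.45, -1.11 and -2.03 in loaded DCs against -1.47, -0.43 and -0.42 in unloaded ones, which overlap. In macrophages every loaded array (0.50 to 1.57) lay above the unloaded arrays of its population (-0.63 to 0.53). Its interaction was -2.10 ± 0.47 (0.0458), and neither arm passed alone.

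Ids, Slc11a2 and Cpd were among the 12 genes that the rule took for the largest smaller arm in this direction, and they were grouped here after their values were seen. Ids encodes the lysosomal sulfatase that starts the breakdown of heparan and dermatan sulfate. It was -1.51, -1.69 and -1.54 in loaded DCs and 0.72, 0.70 and 0.17 in unloaded DCs, and its macrophage arm was 1.35 ± 0.35 (interaction -3.46 ± 0.60, limma, adjusted p = 0.0143). Slc11a2, the divalent metal transporter that moves iron out of endosomes, was -2.69, -2.30 and -1.74 in loaded DCs against -0.60, -0.08 and -0.78 in unloaded ones, and all 3 loaded arrays of macrophages with CD103, 1.32 to 2.03, lay above the unloaded ones, -0.46 to 0.84. Its interaction was -3.06 ± 0.62 (0.0283). Cpd, a carboxypeptidase of the secretory pathway, had an interaction of -3.09 ± 0.65 (0.0327).

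The same rule named regulators of chromatin and transcription: Tle4, a Groucho corepressor (interaction -3.16 ± 0.59), Lemd3, an inner nuclear membrane protein that curbs SMAD signalling (-3.26 ± 0.64), Mga, a MAX partner (-2.59 ± 0.58), Srcap, a chromatin remodeller (-2.80 ± 0.59), and Ncoa6, a nuclear receptor coactivator (-2.54 ± 0.51). Their adjusted p-values in limma lay between 0.021 and 0.0458. For Tle4 the arms were -1.84 in DCs and 1.32 in macrophages, and for Srcap -1.26 and 1.54. No list of chromatin genes was tested, so this says only which genes the rule picked. R3hdm1 had the largest interaction below 0 of the called genes, -4.20, but also a wide SE of 0.95: loaded DC replicate 2, at 0.03, stood apart from -2.61 and -2.41. Mbip (-3.10 ± 0.60) and Otud6b (-2.54 ± 0.51) complete the 12.

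Mbtps2 encodes the site-2 protease that frees SREBP, the regulator of cholesterol synthesis, from its membrane. It was -2.64, -1.32 and -2.49 in loaded DCs and 0.71, 0.39 and 0.82 in unloaded DCs. In macrophages with CD103 loaded arrays (-0.21 to 0.36) lay within the range of the unloaded ones (-2.01 to 0.30) or just above it, and in the other macrophages they lay above it (0.24 to 0.86 against -1.36 to -0.69). The interaction was -3.92 ± 0.59 (limma, adjusted p = 0.00613). Mbtps1, the site-1 protease that cuts SREBP first, was looked up after that value was seen, and had a DC arm of -2.06 ± 0.39 (0.0204), a macrophage arm of 0.28 ± 0.28 and an interaction of -2.35 ± 0.48 (0.0284). Of the 18 measured genes of cholesterol synthesis and uptake none was called (1.33% of all genes were). Their median interaction was -1.09, and 7 of them were lower in loaded DCs and higher in both macrophage populations (19.2% of all genes were), with Hmgcs1 at -3.24 (0.0821). After quantile normalization the median interaction of these 18 was -0.44, and their DC median was -0.44 in place of -1.03.

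For some of the 211 the DC arm was near 0 and macrophages carried the difference. Epb41l3, a protein 4.1 member that ties membrane proteins to the cortical skeleton, was -0.32, -0.57 and -0.50 in loaded DCs and -0.42, -0.32 and -0.25 in unloaded ones. In macrophages with CD103 it was 2.61, 1.50 and 2.25 with GFP and -0.03, -0.41 and -0.41 without, and in the other macrophages 2.09, 3.54 and 2.46 with GFP and 0.06, 0.03 and 0.49 without. Both macrophage populations were fully apart, and the macrophage arm of 2.45 ± 0.23 was a 5.47-fold rise (limma, adjusted p = 0.000368, interaction -2.59 ± 0.39, 0.00621). Pikfyve, the lipid kinase that shapes maturing phagosomes, and Fblim1, an adaptor of integrin adhesions, were chosen after their values were seen. Their macrophage arms were 1.31 ± 0.17 and 1.45 ± 0.19 (adjusted p = 0.00653 for both), their DC arms -0.15 and -0.02, and their interactions -1.46 ± 0.29 and -1.47 ± 0.32. Myo9a, an unconventional myosin, had arms of -0.82 in DCs and 1.76 in macrophages (interaction -2.58 ± 0.42, 0.00971).

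Other members are macrophage genes that were low on every DC array, and the centred values cannot show whether they were above background there. Pla2g7, which inactivates platelet-activating factor, was -5.62, -5.21 and -5.54 in loaded DCs and -3.59, -4.00 and -3.69 in unloaded DCs, while all macrophage arrays lay between -0.31 and 1.03. Its interaction was -2.19 ± 0.25 (limma, adjusted p = 0.00077). Tgm2, the transglutaminase that helps macrophages engulf dying cells, was -5.27 to -4.42 in loaded and -3.64 to -2.91 in unloaded DCs (interaction -1.98 ± 0.37, 0.0215). Adamdec1, a protease of gut macrophages chosen after its values were seen, was -4.92 to -4.21 in unloaded and -5.66 to -5.38 in loaded DCs and had a macrophage arm of 1.20 ± 0.18 (0.0169). The mean of the 10 macrophage markers moved with them: it was -5.09, -5.16 and -4.84 on loaded and -4.75, -3.87 and -4.24 on unloaded DC arrays, which do not overlap. C1qa, one of those markers, was -6.55 to -6.12 in loaded and -5.90 to -3.79 in unloaded DCs. Whether a trace of macrophage RNA in the unloaded DC gate has a part in these DC arms was not tested. Of the 10 markers 7 had an unadjusted interaction p under 0.05, all below 0 (11.7% of all genes were past it and below 0). None of the 10 was called (1.33% of all genes were). Their median was -1.26 for the interaction and -0.86 in DCs, and after quantile normalization -0.26 and -0.05.

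Il1a, the cytokine interleukin 1 alpha, was -3.95, -3.56 and -3.52 in loaded DCs and -2.27, -0.50 and -1.62 in unloaded ones. Loaded macrophage arrays (0.44 to 1.17) lay above the unloaded ones of macrophages with CD103 (-0.15 to 0.05), and overlapped those of the other macrophages (-0.60 to 0.50). The interaction was -3.05 ± 0.44 (limma, adjusted p = 0.00491). Il1a was the 1 call among 21 genes of NF-kB and inflammatory cytokines, against 1.15% of all genes called below 0 and 0.18% above. Tnf had the opposite sign, 1.78 (0.0578), with a DC arm of 1.71 (0.0308) and a macrophage arm of -0.07. Of the signalling genes, Ptpn11, the phosphatase SHP2, and Cbl, a ubiquitin ligase of receptor kinases, were chosen after their values were seen because no population overlapped. Ptpn11 had arms of -2.02 and 1.15 (interaction -3.17 ± 0.57, 0.018) and Cbl -0.68 and 1.12 (-1.80 ± 0.33, 0.0207).

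Among the 211, the median loading effect was -1.57 in DCs and 0.66 in macrophages, and the interaction ran from -4.20 to -0.62 with a median of -2.33, against -0.03 over all genes. After quantile normalization the medians of these 211 were smaller, -0.93 in DCs and -1.69 for the interaction, and that in macrophages was 0.67. Arrays did not overlap in DCs for 197 of them (11.5% of all genes were free of overlap with GFP-plus lower), and in all 3 populations for 19 (0.167% of all genes). The 211 were chosen by the same values, so counts above the shares over all genes follow from the choice. Of the 235 opposite genes, 38 were also called against each macrophage population taken alone.

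The mean over the 211 genes was -1.56, -1.20 and -1.48 on loaded DC arrays and 0.10, 0.24 and 0.19 on unloaded ones. It was 0.20, 0.43 and 0.61 on loaded and -0.27, -0.59 and -0.09 on unloaded macrophages with CD103. In the other macrophages it was 0.49, 0.39 and 0.59 on loaded and -0.51, -0.24 and 0.11 on unloaded arrays. Loaded DCs stood far below every other group, while the step in macrophages was smaller and the unloaded replicates varied. Since these genes were chosen by these values, the means are a description.

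Estimated array weight, a measure of how closely an array follows its group, also differed between groups. The weights were 0.414, 0.664 and 0.617 on loaded and 0.637, 2.23 and 1.43 on unloaded DC arrays. They were 2.45, 1.53 and 2.52 on loaded and 0.507, 1.51 and 0.731 on unloaded macrophages without the CD103 gate, the reverse order. For macrophages with CD103 they were 0.352, 2.42 and 1.45 on loaded and 1.28, 0.437 and 0.792 on unloaded arrays. Both unloaded macrophage arrays with the lowest means over the 211 genes, -0.59 and -0.51, had weights of 0.437 and 0.507, the lowest among unloaded arrays. The lowest weight of all, 0.352, belonged to a loaded array of macrophages with CD103 whose mean was 0.20. Without the 4 arrays of lowest weight, 25 genes were called opposite with DCs up and 212 with DCs down. Of these, 6 and 100 were among the 24 and 211, and the median interaction of the 211 was -2.11. Beyond this, the part of array quality in the result was not tested.

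**Figure D3:**
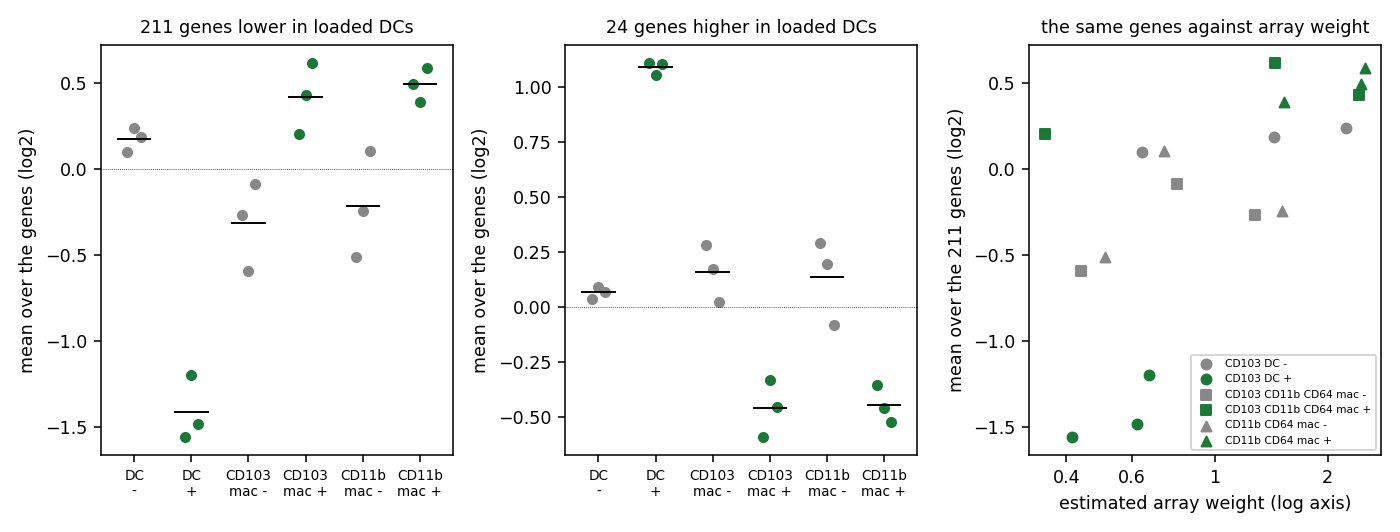
Left and middle: mean log2 value over the 211 genes lower in loaded DCs and over the 24 genes higher in loaded DCs, 1 point per array, with group means as lines (grey GFP-minus, green GFP-plus, n = 3). Right: the mean over the 211 genes against estimated array weight on a log axis; the 3 loaded DC arrays, at -1.56 to -1.20, lie below all others and have weights of 0.414 to 0.664.

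The count of calls moved with single arrays. Genes called below 0 numbered 99 in place of 255 without loaded DC replicate 1, 110 and 103 without unloaded DC replicates 2 and 3, and 130 without loaded replicate 3 of macrophages with CD103. They numbered 145, 168 and 112 without loaded replicates 1, 2 and 3 of the other macrophages. They numbered 582 without loaded DC replicate 2, 634 without loaded replicate 1 of macrophages with CD103, 501 without unloaded replicate 3 of the other macrophages and 383 without unloaded replicate 3 of macrophages with CD103. Genes called above 0 numbered 17 in place of 40 without loaded replicate 3 of the macrophages without the CD103 gate, and 105 without their unloaded replicate 3 or without loaded DC replicate 2. The interaction of each of the 24 and 211 genes kept its sign in every one of the 18 fits that left out 1 array. Because a called interaction on these arrays chose the genes, a kept sign follows largely from the choice. Ccl17, Acadsb, Hmgn5, Epb41l3, Fam91a1, Lrrc32, Fscn1, Gclc, Gcsam, Haspin and Cd63 were called under all 28 alternatives run, and Dapk2, Glipr2 and Nudt17 under all 27 that could be run for them.

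Among called genes that were not opposite, those with the largest interaction had a large DC arm and a small macrophage arm. Fscn1, the actin bundler of mature DC dendrites, was 6.26, 5.88 and 5.65 in loaded and 3.15, 1.99 and 1.97 in unloaded DCs, with a macrophage arm of 0.65 ± 0.22 (interaction 2.92 ± 0.39, limma, adjusted p = 0.0026). Il12b, the p40 chain of interleukins 12 and 23, was 4.02, 4.03 and 3.82 against 0.80, 0.93 and 1.17 in DCs (interaction 2.28 ± 0.43, 0.0219). Gclc, the rate-limiting enzyme of glutathione synthesis, was 3.83, 3.71 and 3.71 against -0.54, 0.36 and -0.02 in DCs (interaction 3.53 ± 0.46, 0.00222). Dapk2, a death-associated kinase, fell in DCs from 4.20, 3.39 and 5.42 to -0.13, 0.16 and 0.02, with a macrophage arm of -0.24 (interaction -4.08 ± 0.43, 0.000681). In each of these genes the 3 loaded DC arrays lay close together and clear of the unloaded ones. Cd63, a tetraspanin of late endosomes, rose from between -3.52 and -2.67 to between -0.78 and -0.59 in DCs and had a macrophage arm of 0.50 (interaction 2.02 ± 0.22, 0.000681), the reverse in DCs of the other called lysosomal genes.

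Gene lists were read by counts and medians. They were written with earlier results of these data known, so their shares beside those of all genes are a description. DC maturation and migration was the list with the most calls above 0: 4 of 25 measured genes (Ccl17, Fscn1, Il12b and Nudt17), against 0.18% of all genes, and none below. Its median was 1.38 in DCs and -0.06 in macrophages, and 9 members were higher in loaded DCs and lower in both macrophage populations, a pattern of sign that 14.3% of all genes had. Ccr7, the receptor that leads DCs to the lymph node, was among those 9 but uncalled: its arms were 1.81 and -1.78 and its interaction 3.58 (limma, adjusted p = 0.104). Loaded DC replicate 1, at 0.42, stood below 2.70 and 2.25. Ccl22, a chemokine for the same receptor as Ccl17, had 2.40 in DCs and -0.50 in macrophages (interaction 2.90, 0.0836).

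Cell cycle genes had the most calls below 0: 5 of 32 (Haspin, Nusap1, Kif11, Cenpe and Bub1), against 1.15% of all genes. Their median was -1.02 in DCs and 0.09 in macrophages, and 31 of 32 had an interaction below 0, as did 52.8% of all genes. Their median interaction was -0.99, and -0.62 after quantile normalization. Kif11, the motor that opens the mitotic spindle, was 0.38, 0.42 and -0.81 in loaded DCs and 1.60, 1.64 and 2.11 in unloaded DCs, while all macrophage arrays lay between -0.51 and 0.86 (interaction -2.23 ± 0.44, limma, adjusted p = 0.0276). Haspin, the kinase that marks mitotic histone H3, was 0.20 to 0.27 in loaded and 2.82 to 4.09 in unloaded DCs (interaction -3.13 ± 0.33, 0.000681), with loaded and unloaded macrophages near the same value.

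Lists for uptake, digestion and sensing had medians below 0 in DCs and above 0 in macrophages. In the order below, the medians were 0.09, 0.05, 0.40 and 0.18 in macrophages with CD103 and 0.36, 0.40, 0.45 and 0.46 in the others. The counts of these lists stand against 19.2% of all genes lower in loaded DCs and higher in both macrophage populations by sign, 1.15% called below 0 and 0.18% called above. For 29 genes of apoptotic cell recognition and uptake the median was -0.11 in DCs and 0.19 in macrophages, with 12 members lower in loaded DCs and higher in both macrophage populations and 2 called (Tgm2 and Itgav). For 31 genes of lysosome and phagosome it was -0.32 and 0.23, with 13 opposite members, 2 calls below 0 (Lipa, the acid lipase, with an adjusted p of 0.0259 and a DC arm of -1.63, and Lamp2, with 0.0458 and -0.75) and 1 above (Cd63). For 17 genes of lipid handling and efflux it was -0.16 and 0.36, with 9 opposite members and 1 call, Lpcat3, which remodels membrane phospholipids (-1.76 ± 0.38, limma, adjusted p = 0.0405). For 21 genes of Toll-like receptors and signalling it was -0.47 and 0.31, with 10 opposite members and calls for Tlr12 (-1.99) and Unc93b1 (-1.31), the chaperone that brings nucleic acid sensing receptors to endosomes. After quantile normalization the DC medians of these 4 lists were 0.07, 0.13, 0.15 and 0.00, so their direction in DCs depended on the scaling, while those in macrophages stayed above 0, at 0.20, 0.21, 0.45 and 0.32. The opposite members then numbered 4, 5, 4 and 4 in place of 12, 13, 9 and 10. Mertk and Abca1, a receptor for apoptotic cells and the cholesterol efflux pump, were past the threshold in macrophages (1.76, adjusted p = 0.0259, and 1.20, 0.0476) and had interactions of -1.78 (0.0925) and -1.61 (0.0661).

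**Figure D4:**
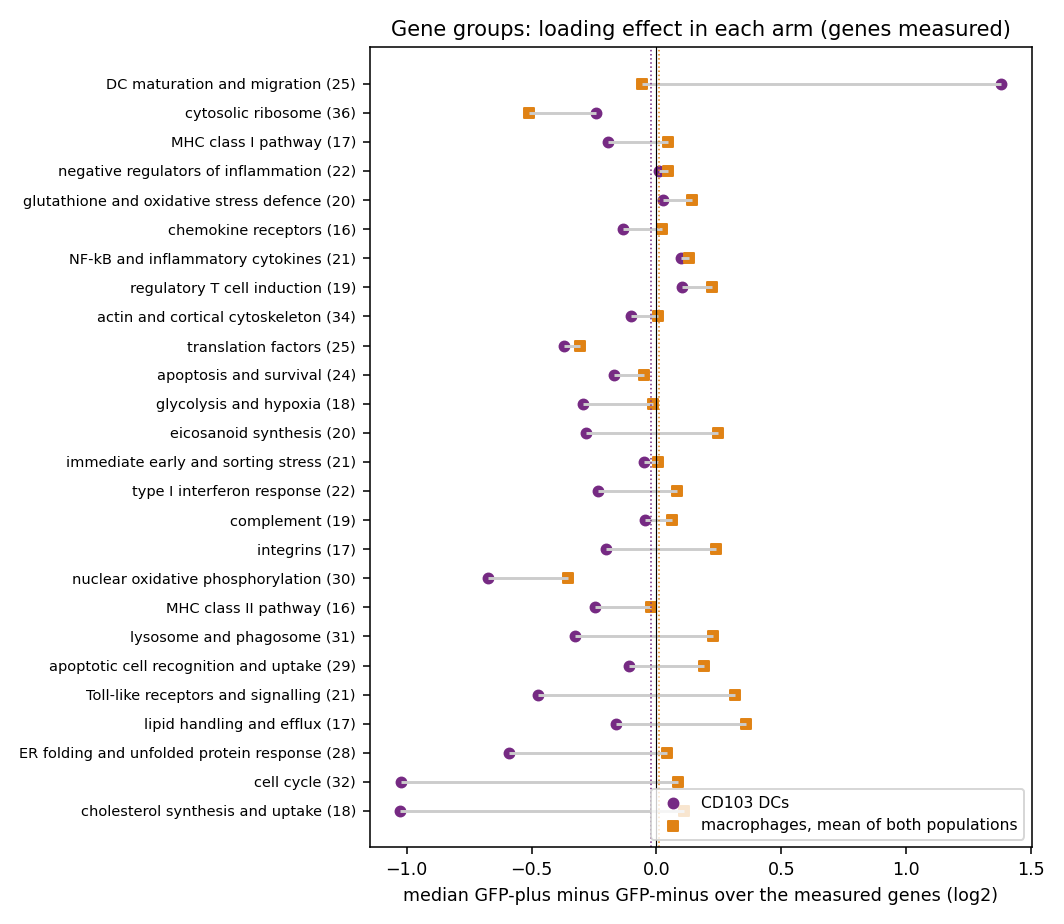
Median loading effect in CD103 DCs (circles) and in macrophages (squares) over the measured genes of 26 pathway lists, in log2 units, with the number of measured genes in brackets; dotted lines are the medians over all genes, -0.02 and 0.01. DC maturation and migration stands at 1.38 in DCs, and cell cycle and cholesterol synthesis at about -1 with macrophages close to 0. Taken separately, the cholesterol synthesis median was 0.01 in macrophages with CD103 and 0.56 in the others.

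The calls in other lists are to be read against the 0.18% of all genes called above 0 and the 1.15% called below. Of 28 genes of ER folding 1 was called (Alg5, -3.10 ± 0.54, limma, adjusted p = 0.015), with a median of -0.59 in DCs (-0.33 after quantile normalization) and 0.04 in macrophages. Of 34 actin and cortical cytoskeleton genes 3 were called above 0 (Fscn1, Lsp1 and Myo1g) and 4 below (Epb41l3, Myo9a, Fblim1 and Plek), with a median interaction of -0.03, that of all genes. Of 17 integrins Itgav was called below 0, and of 16 chemokine receptors 1 was, Ccr9, the receptor for homing to the small intestine (-1.10 ± 0.22, 0.0299). None of 36 cytosolic ribosome genes, 30 nuclear oxidative phosphorylation genes and 22 interferon response genes was called, and the ribosome median was lower in macrophages (-0.51) than in DCs (-0.24).

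Of 11 enterocyte markers, 1 was higher in loaded DCs and lower in both macrophage populations (14.3% of all genes were). The reverse signs were seen in 1 (19.2% of all genes). The mean of the 11 was 0.58 to 0.74 on loaded and -0.53 to -0.08 on unloaded DC arrays. Its median across the 3 arrays was higher in loaded than in unloaded cells of both macrophage populations too (0.19 against -0.15, and 0.47 against -0.34). In macrophages with CD103 loaded (-0.03 to 0.75) and unloaded arrays (-0.49 to 0.05) overlapped. In the other macrophages they did not (0.20 to 0.58 against -0.50 to -0.31). None of the 11 was called in the interaction. Calls among markers stand against 0.18% of all genes called above 0 and 1.15% called below. Of 8 secretory epithelium markers Defa24, a Paneth cell defensin, was called (interaction 3.83 ± 0.66, limma, adjusted p = 0.0143): it was 4.39, 3.87 and 4.53 in loaded and -0.34 to 0.19 in unloaded DCs, and 2.23 on 1 loaded array of macrophages with CD103. Defensin genes are near-identical copies, so the probe may read several of them. Gzma, a granzyme of cytotoxic lymphocytes, was the 1 called of 11 lymphocyte markers (-3.08 ± 0.58, 0.0215), and the mean of that list was -0.38 to -0.08 on loaded and 0.33 to 1.10 on unloaded DC arrays. The part of lymphocyte RNA in the differences between gates was not tested.

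The 2 macrophage populations were averaged in the interaction. No gene differed between their loading effects at an adjusted p under 0.05 in limma, and 834 (3.76%) did at an unadjusted p under 0.05. Across 22180 genes, which are not independent replicates, their loading effects correlated with Pearson's r = 0.363 and a Spearman coefficient of 0.271, while the DC effect and the macrophage mean gave r = -0.127 and a Spearman coefficient of -0.147. Against macrophages with CD103 alone 77 genes were called (0.347%), and against the others 118 (0.532%). Of the 92 genes called in the macrophage mean, 22 were also called in the interaction, and of the 351 called in DCs 186 were (1.33% of all genes). The interaction is computed from these 2 effects on the same arrays, so shared calls are built in and are a description.

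The opposite genes were also set against all genes by properties that the test did not use. The genomic span of the 211 had a median of 32.0 kb (210 found in RefSeq, GRCm38.p6), that of the 24 a median of 12.5 kb (23 found) and that of all genes 16.3 kb. Among protein-coding genes the medians were 34.5, 12.5 and 18.7 kb. Calls below 0 took up 0.395% of the genes in the lowest quintile of span and 1.92% of those in the highest, whereas calls above 0 were 0.185% and 0.105%. The part of gene span in the calls was not tested.

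RefSeq promoters (250 bases before the start) were found for 17 of the 24 genes (20 starts), 178 of the 211 (223 starts) and 16918 of all genes (20520 starts). The sequences printed above belong to these. Median GC content was 57.6%, 58.4% and 55.6%, and the median number of CpG sites 10.5, 14 and 10. The GC box GGGCGG, on either strand, lay in 75% of the 20 starts and 53.8% of the 223, against 43% of all. TGANTCA (AP-1) lay in 15%, 5.83% and 6.35%, and CCAAT in 25%, 38.6% and 34.8%. TATAAA lay in 10%, 7.17% and 11.3%, TGACNNNGC (antioxidant response) in 5%, 13.9% and 10.8%, and the NF-kB motif in 5%, 0.897% and 1.42%. With 20 starts, 1 start is 5%, and no share was tested. Some starts belong to 1 gene, and a match of letters does not show that a factor binds there.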

How the data were processed

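Affymetrix mouse gene arrays were hybridised with 18 RNA samples, 3 per group. Per the labels' protocols, cells were sorted into TRIzol, RNA was cleaned on columns with DNase, and 1 ng was amplified and biotin labelled (NuGEN WT Ovation Pico). The authors deposited log2 values, each probe centred on its median over the arrays (largest absolute median 5e-07). Base 2 is an inference: 1 probe spanned 10.15 units, more than the 4.82 of a 16-bit range in log10. The sources used here give no software, summarisation or normalization. The centring removed absolute signal, so detection and brightness filters were not possible, and the number of arrays limits the precision.

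Of 33793 probes, 23521 had 1 gene symbol in the platform annotation, 1814 several and 8458 none. The first kind was averaged per gene (1082 genes had over 1 probe), giving 22180 genes. limma 3.58.1 in R 4.3.3 was fitted to all 18 arrays with 1 mean per group, empirical Bayes variances (12 residual degrees of freedom and 2.089 from the prior), two-sided tests and Benjamini-Hochberg adjustment over all genes at 0.05. Standard errors come from this fit. The procedure was tested on simulated data.

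Named genes are up to 12 opposite genes per direction with the largest smaller arm, up to 8 called genes per direction with the largest interaction, up to 4 per list with the smallest p, and the sort markers. Others are said to be chosen after their values were seen. The comparison, the 36 gene lists (10 of markers, 26 of pathways) and the tests were chosen with earlier results of these data known. Lists were given no test. Alternatives were other scalings, array weights, fewer arrays, a replicate block, robust variances, single probes, a filter on spread, 1 macrophage population at a time, and each array left out.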

Additional observations from a re-analysis of the deposited data

Results flagged for a closer look

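The loading effect differed between DCs and macrophages, by limma's test of the difference itself, in 295 genes. The 37 that the naming rule takes by size are given here by their interaction in log2 units, with no explanation weighed. Directions are the signs of the estimates, which may be small in either arm. Of the opposite genes listed here, only Ccl17 had both arms past the adjusted threshold. Higher in loaded DCs and lower in both loaded macrophage populations were Ccl17 (4.81), Glipr2 (4.53), Anxa2 (2.25), Rprl2 (2.13), Bbc3 (1.76), Tagln2 (1.33), Olfr1085 (1.32), Ang6 (1.32), Synpr (1.14), Gm9573 (1.04), Dchs1 (1.01), 1700028E10Rik (0.97) and Gm6139 (0.87). Lower in loaded DCs and higher in both loaded macrophage populations were R3hdm1 (-4.20), Ndrg3 (-4.06), Hmgn5 (-4.00), Mbtps2 (-3.92), Paxip1 (-3.87), Fam91a1 (-3.84), Macf1 (-3.74), Ids (-3.46), Lemd3 (-3.26), Tle4 (-3.16), Mbip (-3.10), Cpd (-3.09), Slc11a2 (-3.06), Srcap (-2.80), Mga (-2.59), Ncoa6 (-2.54) and Otud6b (-2.54). The large interactions of Defa24 (3.83), Gclc (3.53), Nudt17 (3.29), 5430437J10Rik (3.15), Eno3 (3.07), Fscn1 (2.92) and Dapk2 (-4.08) came with a macrophage effect that had the same sign as in DCs or unlike signs in the 2 macrophage populations.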

How the results depend on the processing

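The interaction estimates of the 24 and 211 opposite genes kept their sign under every alternative in which they were tallied. That follows largely from their choice by a called interaction on the same arrays. The opposite genes were not tallied with probes tested singly, and the spread filter fitted 19 and 205 of them. The counts of calls moved more. With 40 calls above 0, 255 below 0, 24 opposite with DCs up, 211 opposite with DCs down and 92 in the macrophage mean, quantile normalization gave 16, 34, 7, 30 and 317, of which 6 and 29 were among the original 24 and 211, and 197 of the 211 kept both macrophage populations above 0 and DCs below 0. Array weights gave 94, 587, 66, 483 and 654. The spread filter gave 424 below 0 and 337 opposite with DCs down, with fewer genes tested. Macrophages with CD103 as the only macrophage arm gave 15, 62, 12 and 58, and the other macrophages gave 18, 100, 10 and 95, with fewer arrays in that arm. Centring each array on its median, robust variances and single probes left all these counts within 1.5 times. The interaction of Itgae, uncalled, turned from 0.81 to -0.21 with the other macrophages as the only arm. The interquartile range of the values was 0.394 to 0.578 on loaded and 0.278 to 0.375 on unloaded DC arrays. For macrophages without the CD103 gate it was 0.256 to 0.273 on loaded and 0.267 to 0.464 on unloaded arrays. For those with CD103 it was 0.258 to 0.497 and 0.302 to 0.438. Quantile normalization gives all arrays the same range. The part of this spread in the moves, and the cause of the other moves, was not tested.

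Leaving out each array gave 17 to 105 calls above 0, 99 to 634 below 0, 8 to 77 opposite with DCs up, 83 to 532 opposite with DCs down and 18 to 435 in the macrophage mean. Genes whose loading effect differed between the macrophage populations numbered 0 to 2, and 3 without the 4 arrays of lowest weight.

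Deviations from the group mean, compared across genes between same-numbered arrays of different groups, correlated between -0.17 and 0.34 (45 pairs, median 0.06), with 13 above 0.1. Pairs with other numbers had a median of -0.02, with 12 of 90 above 0.1. Same-numbered pairs thus correlated somewhat more. The labels state no shared animal or batch, so the main fit did not pair samples by number. Whether the numbers mark a shared batch was not tested. With the replicate number as a block, 66 genes were called above 0, 407 below 0, 44 opposite with DCs up, 331 opposite with DCs down and 151 in the macrophage mean.

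With 3 arrays per group and no absolute signal, differences near background cannot be told from those above it.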
